A study of Mus musculus with 96 samples.

Results

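The desmosome genes described here are the 10 genes Dsp, Dsg2, Dsg3, Dsc2, Dsc3, Pkp1, Pkp2, Pkp3, Jup and Perp, chosen by symbol from the 55487 genes of the count table. All 10 were found in it. Their transcripts were measured in 96 single cells. These came from 48 divisions of mouse horizontal basal cells (HBCs), the reserve stem cells of the olfactory epithelium (OE), which had been grown in culture. The genotype was Wild type throughout, the mice were adults of 6 to 8 weeks, and the OE was dissected 2 days after an injection of methimazole, which injures it. In culture the coating of the dish was changed from Tropoelastin to Fibronectin before divisions were followed. All cells belong to this single condition, so that no treated or uninjured group is compared with another here. The study asked whether the daughter cells of HBC divisions differ, and pairing of the cells was recorded when they were picked.

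Desmosomes are the junctions that tie the keratin filaments of neighbouring epithelial cells together. Desmosomal cadherins, the desmogleins (Dsg2, Dsg3) and desmocollins (Dsc2, Dsc3), bind across the gap between cells. Inside the cell, the armadillo proteins plakoglobin (Jup) and plakophilins (Pkp1, Pkp2, Pkp3) hold the cadherin tails, and desmoplakin (Dsp) links this plaque to keratin. Perp, a membrane protein that p53 and p63 can induce, is needed for stable desmosomes in stratified epithelia, and basal cells of such epithelia are known for Dsg3 and Dsc3.

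RefSeq promoter windows on GRCm38.p6, from 250 bases before to 50 after the gene start, were at hand for 2 members, the linker Dsp and plakoglobin. No window was at hand for the other members, so the choice of these 2 does not rest on their values. Capitals mark matches to CCAAT, to GGGCGG and to the p53 family motif of 10 bases, each on either strand. The Dsp window is chr13:38151044-38151343 on the plus strand, and the Jup window is chr11:100397741-100398040 on the minus strand.
Dsp: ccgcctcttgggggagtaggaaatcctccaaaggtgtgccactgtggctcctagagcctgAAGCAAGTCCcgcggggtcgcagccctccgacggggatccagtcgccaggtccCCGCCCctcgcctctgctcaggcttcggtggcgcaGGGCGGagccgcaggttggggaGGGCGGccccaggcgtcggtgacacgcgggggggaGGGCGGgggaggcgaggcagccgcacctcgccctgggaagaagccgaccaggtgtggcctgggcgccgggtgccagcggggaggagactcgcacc
Jup: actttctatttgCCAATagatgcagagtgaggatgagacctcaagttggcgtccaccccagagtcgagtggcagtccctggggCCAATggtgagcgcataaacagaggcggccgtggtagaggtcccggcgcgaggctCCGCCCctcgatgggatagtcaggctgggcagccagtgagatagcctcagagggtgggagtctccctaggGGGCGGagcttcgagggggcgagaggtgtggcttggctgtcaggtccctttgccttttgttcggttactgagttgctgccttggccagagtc
The Dsp window had a GC content of 73% and the Jup window 60.7%, beside a median of 52.7% over the 32851 windows of this length. GGGCGG occurred 4 times in the Dsp window and 2 times in that of Jup, and 35.7% of all windows hold it. CCAAT occurred 2 times in the Jup window and not in that of Dsp, beside 37.4% of all windows. One match to the p53 family motif lay in the Dsp window, beside 8.36% of all windows, and none in that of Jup. CANNTG, the E-box, had 1 match in the Dsp window and none in that of Jup, and 72.3% of all windows hold it. Neither window held TATAAA, found in 13.6% of all windows, or TGANTCA, found in 7.81%. These matches describe the letters in the windows and are not binding sites.

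Each cell had 29454150 to 44849003 counts on genes, and 1.06% to 5.75% of all counts fell on ERCC transcripts, a synthetic mix added to each lysate. Neither the mouse nor the culture of a cell is given, so the 96 cells are 1 sample of 1 condition, and every value below describes these cells without a test. The HBC markers Trp63, Krt5 and Krt14 were counted in all 96 cells, with median TPM of 80.2, 2090 and 3672. Of 32 markers of other cell types, among them immune, fibroblast and endothelial genes, 30 had a median TPM of 0 and 8 were counted in no cell. Only the macrophage gene Cd68 had a median above 1, at 1.11 TPM. Medians do not show single cells. The neuron genes Gap43 and Gng13 were counted in 22 and 16 cells, the globose basal cell gene Lgr5 in 14, and the endothelial gene Pecam1 in 92 with a median of 3 counts. The deposited names number the cells in 12 sets of 8, and whether a set was handled together is not stated.

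Transcripts of all 10 desmosome genes were present in most cells, and their levels in TPM, a value scaled for gene length and library size, spanned a wide range. Perp was highest, with a median of 745 TPM, and Dsg3 lowest, with 14.0 TPM. Summed over the 10 genes, the level was 1581 TPM at the median and ran from 671 to 3568 TPM over the cells. The mean sum was 1667 TPM ± 528 (SD over cells), of which Perp gave 46.8%, Jup 22.6% and Dsp 7.79%, so that these 3 members made up most of the desmosome transcripts. Of the members, 8 had at least 1 count in each of the 96 cells (background 31.8% of the 14463 genes that passed the filter on low counts). Among genes of 10 to 50, 50 to 150 and 150 to 1000 TPM, 43%, 83.4% and 99.7% were counted in every cell, beside 3 of 5, 3 of 3 and 2 of 2 members. Asking for at least 10 counts in each cell left 5 members, and a TPM of at least 1 left 3. Shares of all genes at these stricter thresholds were not computed. The members not counted in every cell were Dsc2, counted in 95 cells, and Pkp2, counted in 92.

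**Figure D1:**
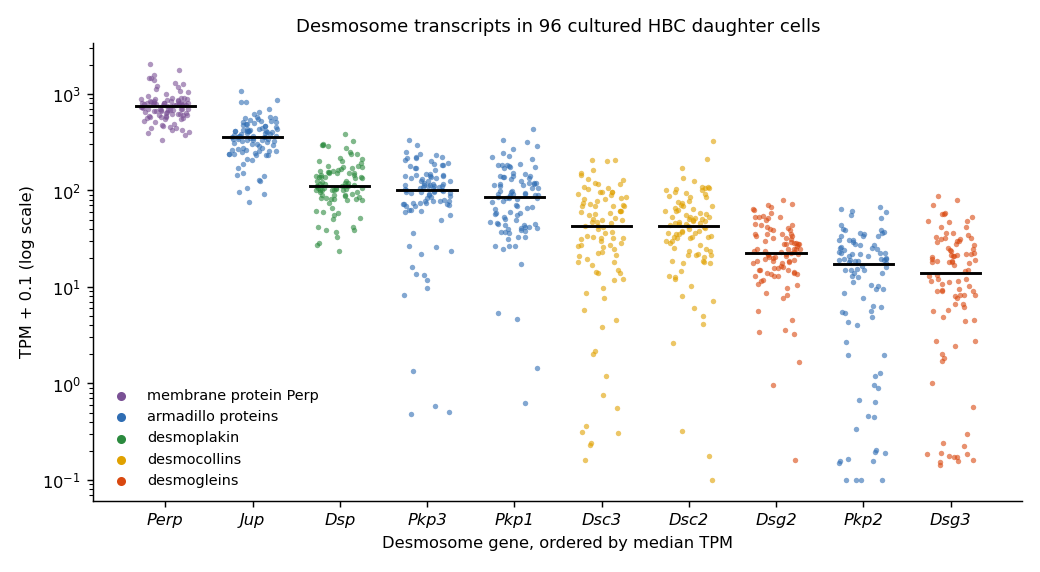
TPM + 0.1 on a log scale for the 10 desmosome genes, 1 point per cell for 96 cells, with a black line at the median and colours for the kind of protein. Perp and Jup lie in narrow bands with medians of 745 and 357 TPM, while Dsc3, Pkp2 and Dsg3 have a lower group of cells near 0 TPM.

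Perp (ENSMUSG00000019851, chr10:18845020-18857073, plus strand in GRCm38) had the narrowest spread. Its lowest, median and highest values were 331, 745 and 2070 TPM, and its quartiles lay 1.41-fold apart. No cell was close to 0, and cell 46-2 held the highest value.

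Desmoplakin, the keratin linker (Dsp, ENSMUSG00000054889, chr13:38151294-38198577, plus strand), ran from 23.3 TPM over a median of 112 to 389 TPM. Every cell had at least 5244 counts of it. An antisense gene, Gm10129, overlaps Dsp, and since the library kit does not keep strand, reads of the pair cannot be told apart. Gm10129 itself was given at most 345 counts.

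Among the armadillo genes, plakoglobin (Jup, ENSMUSG00000001552, chr11:100368958-100397763, minus strand) was the most abundant. Its values ran from 74.99 TPM over a median of 357 to 1067 TPM. Pkp3 (ENSMUSG00000054065, chr7:141078218-141090510, plus strand) had 0.386, 101 and 332 TPM as lowest, median and highest value, and Pkp1 (ENSMUSG00000026413, chr1:135871395-135919207, minus strand) had 0.529, 85.8 and 436 TPM. The medians of these 2 plakophilins were close, and Pkp3 exceeded Pkp1 in 51 of 96 cells. Pkp2 (ENSMUSG00000041957, chr16:16213318-16272712, plus strand), the plakophilin best known from heart and simple epithelia, was lower, with values from 0 over a median of 17.0 to 66.5 TPM. Its quartiles were 6.23-fold apart, the widest of the 10. Gm36938, a gene model on the same strand within Pkp1, was given up to 2346 counts in 10 cells, and the division of reads between the 2 is uncertain.

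The 4 cadherin genes lie in a cluster of cadherin genes on chromosome 18, in the order Dsc3, Dsc2, Dsg3 and Dsg2. Dsc3 (ENSMUSG00000059898, chr18:19960930-20002351, minus strand) had 0.0597, 42.4 and 207 TPM as lowest, median and highest value. Dsc2 (ENSMUSG00000024331, chr18:20030633-20059554, minus strand) had a like median, at 42.3 TPM, and ran from 0 to 326 TPM. The desmogleins were lower than the desmocollins. Dsg2 (ENSMUSG00000044393, chr18:20558074-20604521, plus strand), the desmoglein of simple epithelia, ran from 0.0595 over a median of 22.6 to 78.8 TPM. Dsg3 (ENSMUSG00000056632, chr18:20510274-20547459, plus strand), the desmoglein of basal layers, ran from 0.0432 over a median of 14.0 to 88.4 TPM. Dsg2 overlaps the antisense gene Gm16090, which was given at most 204 counts.

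The order of the levels was clearest between the 3 most abundant members. Perp exceeded Jup in 92 of 96 cells (95.8%, exact Clopper-Pearson 95% interval 89.7% to 98.9%) and in both sisters of 45 of 48 pairs, and Jup exceeded Dsp in 94 cells and in both sisters of 46 pairs. The intervals cover counting error only and take each cell by itself, although sisters resemble each other, so they describe these cells and test nothing. Dsp exceeded Pkp3 in 59 cells (61.5%, 50.97% to 71.2%), in both sisters of 19 pairs and in neither of 8. Pkp1 exceeded Dsc3 in 68 cells (70.8%, 60.7% to 79.7%), in both sisters of 30 pairs and in neither of 10. Dsc2 exceeded Dsg2, and Dsg2 exceeded Pkp2, in 64 cells each (66.7%, 56.3% to 75.96%). Pkp3 exceeded Pkp1 in 53.1% of cells (42.7% to 63.4%), Dsc3 exceeded Dsc2 in 48.96% (38.6% to 59.4%) and Pkp2 exceeded Dsg3 in 45.8% (35.6% to 56.3%). These last 3 combinations were the most evenly divided.

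The members also differed in how often a cell had next to none of their transcript. Fewer than 100 counts were found in 20 cells for Pkp2, 14 for Dsg3, 8 for Dsc3, 4 for Pkp3, 3 for Dsc2, 1 for Dsg2 and 1 for Pkp1, and in none for Dsp, Jup and Perp. These are 51 of 960 combinations of gene and cell, or 5.31% (background 41.0%). The share falls with the level of a gene. Among genes with a median of 10 to 50 TPM, the range of Dsg2, Dsg3, Dsc2, Dsc3 and Pkp2, the background was 13.6% and these 5 members had 9.58%. In the range of 50 to 150 TPM it was 3.3%, beside 1.74% for Dsp, Pkp1 and Pkp3. In 58 of the 96 cells no member was low.

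Low values of Dsg3 and Dsc3 occurred in some pairs in both sisters. Dsg3 was under 100 counts in both cells of 4 pairs, numbered 19, 39, 42 and 45, where it had at most 31 counts, and in 1 cell of 6 other pairs. Dsc3 was low in both cells of pairs 37 and 42 and in 1 cell of 4 pairs. No such numbers were computed for genes of like level, so these do not set Dsg3 or Dsc3 apart. In pair 42 the sisters had 8 and 8 counts of Dsg3 and 24 and 26 of Dsc3, while they had 3097 and 3072 counts of Dsg2, 24824 and 36753 of Perp, and 14616 and 17288 of Jup. Other members were also below their medians there. Dsp had 7149 and 5244 counts, the second value being the lowest of the 96 cells (median 22517), Pkp2 had 362 and 173 (median 1014), and Pkp3 had 1237 and 1723 (median 6018). These cells had 12183 and 12008 detected genes, ranks 8 and 7 from the lowest, and 17.2% and 21.6% of the genes with a median of 10 to 50 TPM were under 100 counts in them (median over cells 13.5%). The part of this in the low members was not tested.

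Pkp2 was low in 1 sister of 16 pairs and in both sisters of 2. The numbers to be had if low cells fell on pairs without regard to sisters were not computed. Nor were those of genes of like level, so these numbers do not set Pkp2 apart. In the 16 pairs with 1 low sister the higher sister had 394 to 3714 counts. Pair 26 had 0 and 3626 counts of Pkp2, pair 9 had 2039 and 0, and pair 1 had 0 and 1314. Pkp3 and Dsc2 were low in 1 sister of 4 and of 3 pairs, and in both sisters of none.

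Cell 4-2 was low for 5 members at once. It had 9 counts of Dsg2, 20 of Dsg3, 9 of Dsc2, 8 of Dsc3 and 30 of Pkp3. Its sister, cell 4-1, had 136, 8272, 26511, 636 and 14315 counts of them. The order was turned for Pkp2, with 2041 counts in cell 4-2 and 4 in cell 4-1. Jup, with 9426 counts, and Perp, with 33443, were well counted in cell 4-2. In this cell 30.9% of all genes with a median of 10 to 50 TPM had fewer than 100 counts, the highest share of the 96 cells (median 13.5%), it had 11654 detected genes, the second lowest number, and its mitochondrial share of 3.84% was the highest. The part of these in the low members was not tested, and the counts of low and different members are given below without pair 4 as well. Without it, 45 combinations of gene and cell were low.

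Sister cells were then compared on counts scaled to the ERCC transcripts, with 1 added, calling a member different in a pair where the higher sister had at least 1.5 times the lower, the cutoff of the study. Pkp2 differed in 41 of 48 pairs, Dsc2 in 36, Dsg3 in 34, Pkp3 in 30, Dsg2 in 29, Pkp1 in 29, Dsc3 in 23, Dsp in 21, Perp in 15 and Jup in 14. Summed over members, 272 of 480 combinations differed, or 56.7% (background 65.2%). Without pair 4 it was 55.7%. At a cutoff of 2 it was 37.9% (background 53.2%).

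**Figure D2:**
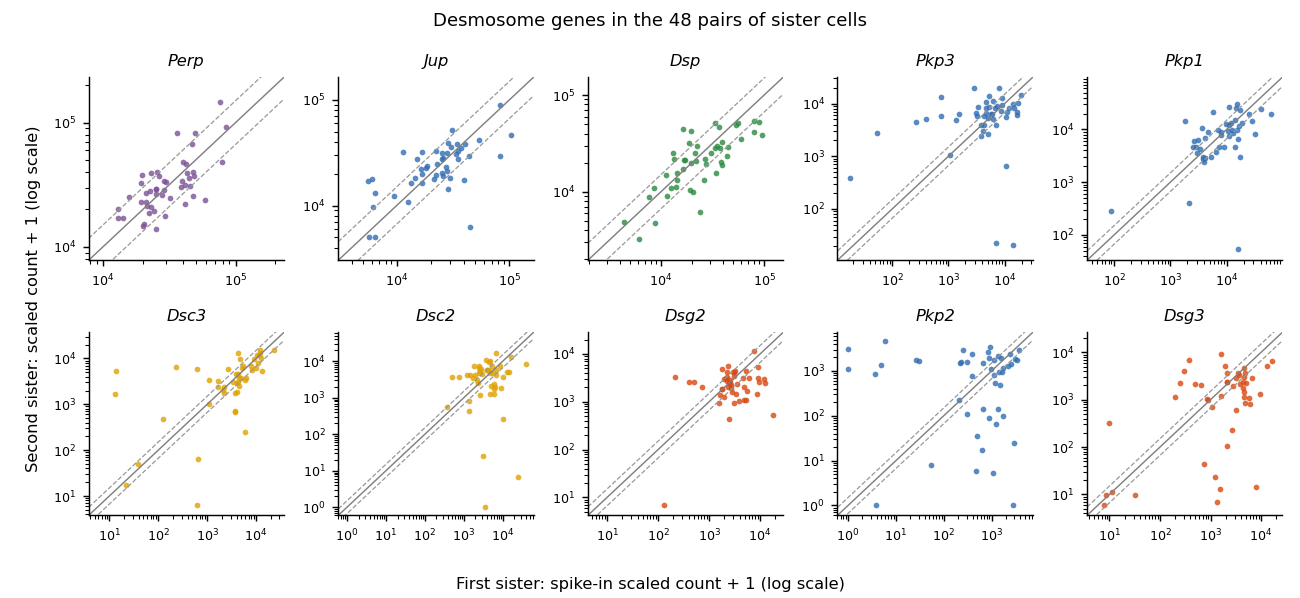
Scaled count + 1 in the first and second daughter cell, both on log scales, for each desmosome gene, 1 point per pair for 48 pairs. The solid line marks equal sisters and the dashed lines a ratio of 1.5; 14 pairs of Jup and 41 of Pkp2 lie on or outside the dashed lines.

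Genes of higher level differed less often. In the range of 10 to 50 TPM, genes differed in 72.2% of pairs and ERCC transcripts, which were added in equal amount to every lysate, in 75.7%, beside 67.9% for the 5 members there. From 50 to 150 TPM the shares were 59.9% for genes, 50% for ERCC transcripts and 55.6% for Dsp, Pkp1 and Pkp3. From 150 to 1000 TPM they were 42.8% for genes, 37.5% for ERCC transcripts and 30.2% for Jup and Perp. The share of the members was thus close to or below that of genes of like level in each range. Ratios of this size were also found for the transcripts added in equal amount. The ERCC shares rest on 9, 4 and 9 transcripts in the 3 ranges, and single ones ran from 20.8% to 70.8% in the middle range. The scaling was itself taken from ERCC transcripts, so these shares are not a separate measure of technical spread.

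Within their ranges the members lay mostly inside the spread of other genes. From 10 to 50 TPM, 90% of genes differed in 47.9% to 87.5% of pairs, and from 50 to 150 TPM in 35.4% to 79.2%. Dsc3 differed in 47.9% of pairs (interval 33.3% to 62.8%), at the 4.47th percentile of the 3982 genes of its range. Dsp, with 43.8% (29.5% to 58.8%), was at the 9.30th percentile of 1602 genes, and Dsg2, with 60.4%, at the 12.6th. Pkp2, with 85.4% (72.2% to 93.9%), was at the 88.8th percentile of the same range as Dsc3.

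Ratios of at least 10 were counted in the same way. They occurred in 16 pairs for Pkp2, 10 for Dsg3, 8 for Pkp3, 5 for Dsc3, 4 for Dsc2, 3 for Dsg2 and 1 for Pkp1, and in none for Dsp, Jup and Perp. These are 9.79% of the combinations (background 24.9%). In the range of 10 to 50 TPM the members had 15.8%, all genes 21.2% and ERCC transcripts 36.3%. From 50 to 150 TPM the members had 6.25%, all genes 7.11% and ERCC transcripts 2.08%. From 150 to 1000 TPM Jup and Perp had no such pair, beside 1.16% for all genes and 0.926% for ERCC transcripts. Without pair 4 the numbers of pairs were 15, 9, 7, 4, 3, 2 and 1, and the share was 8.72%. Highest was Dsc2 in pair 4, with 26511 and 9 counts, and without this pair Dsc2 in pair 5, with 3720 and 0 counts. Pkp1 reached its highest ratio in pair 17, with 10752 and 56 counts, and Dsc3 in pair 3, with 18 and 6209. The highest ratios of the members counted well in every cell stayed small, at 7.13 for Jup and 3.85 for Dsp, both in pair 4, and 2.48 for Perp in pair 8. Without pair 4 the highest ratio was 3.06 for Jup, in pair 29, and 2.75 for Dsp, in pair 28.

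All 10 members differed in 2 pairs, numbered 4 and 8, and the number per pair was 5 at the median and at least 3. In both these pairs 9 members were higher in the first sister and Pkp2 was higher in the second. Pair 8 had 1067 and 354 TPM of Jup, 389 and 154 TPM of Dsp, 326 and 68.6 TPM of Dsc2, and 1135 and 464 TPM of Perp. Its Pkp2 ran the other way, with 4 and 3714 counts. Across pairs, on counts scaled to ERCC transcripts, 6.5 of the 10 members were higher in the same sister at the median. In 9 pairs they were divided 5 to 5, and 6 pairs had 9 or 10 members on a side (in CPM 9 and 5 pairs). Such numbers were not computed for unrelated genes, so they do not show whether the members moved together.

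In TPM, the summed level reached the cutoff in fewer pairs than any single member. The ratio of the summed TPM was 1.14 at the median and at least 1.5 in 6 of 48 pairs, with a highest value of 2.65 in pair 8. With TPM + 1, Perp, which gave 46.8% of the sum, differed in 8 pairs, Jup in 14 and the other members in more. Cells of a pair also resembled each other more than cells of other pairs, with an intraclass correlation of 0.586, a measure that is 1 where sisters are equal and near 0 where they are no more alike than other cells. Set medians of the summed level ran from 1094 TPM in set 1 to 1935 TPM in set 6.

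Members differed widely in this likeness of sisters, computed for each gene on log2(CPM + 1). It was highest for Dsp at 0.71, the 99.6th percentile of the 14463 genes, followed by Dsc3 at 0.63, Jup at 0.56, Perp at 0.47, Pkp1 at 0.46, Dsg3 at 0.42 and Dsg2 at 0.37. The value was near 0 for Pkp3 at 0.10, Dsc2 at 0.05 and Pkp2 at -0.09, members with pairs in which 1 sister had few counts. With a pseudocount of 10 these were 0.11, 0.11 and -0.09, and values of single members without pair 4 are not given. The median was 0.438 over the members and 0.111 over all genes, and 6 of 10 members were above 0.4 (background 9.25%, and 8.54% for genes of 10 to 50 TPM). Of these 6, Dsp, Pkp1, Jup and Perp lie in the higher ranges, for which this share was not computed. The median over genes was 0.12 from 10 to 50 TPM, 0.18 from 50 to 150 TPM and 0.29 from 150 to 1000 TPM. Without pair 4 the median over the members was 0.47. Genes of higher level had higher values, so that Jup was at the 88.6th percentile and Perp at the 78.5th of the genes of their range, while Dsp was at the 99.3rd and Dsc3 at the 99.2nd of theirs.

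**Figure D3:**
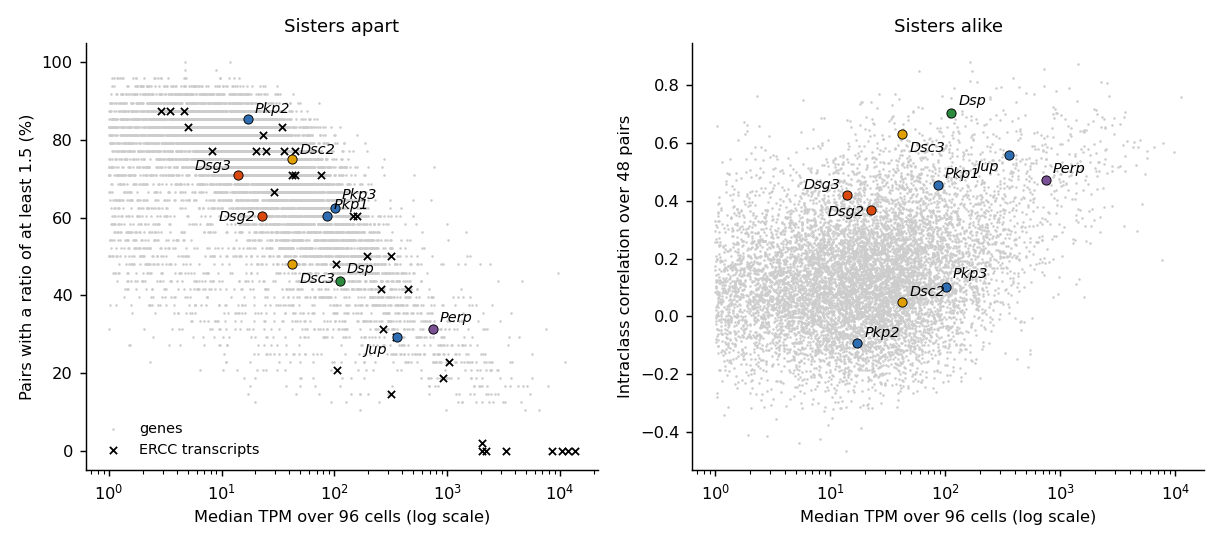
Left, share of 48 pairs with a ratio of at least 1.5 against median TPM, and right, intraclass correlation over 48 pairs against median TPM (log scales for TPM), for genes with a median of at least 1 TPM (grey), ERCC transcripts (crosses, left) and the desmosome genes (coloured). Dsp at 0.71 and Dsc3 at 0.63 lie at the upper edge of genes of their level on the right, and Pkp2 at -0.09 lies low.

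Both sisters of a pair are in the same set, so differences between sets could add to this likeness. With the set means taken out, the median over the members was 0.297. Single values were 0.47 for Dsp, 0.55 for Dsc3, 0.39 for Pkp1, 0.36 for Perp and 0.34 for Jup. The measure fell for every member, also for Pkp2, from -0.09 to -0.25. Taking out set means can itself lower the measure where sets do not differ, and no correction for this was made. Values over all genes were not given for this setting, so the part of the likeness that lay between sets was not determined. Set medians of Dsp ran from 40.3 TPM in set 1 to 176 TPM in set 4, and those of Jup from 127 TPM in set 1 to 492 TPM in set 12. Set 1 was also lowest for Dsg2, at 10.2 TPM, Dsc2, at 22.7 TPM, and Dsc3, at 20.2 TPM. Set medians of Perp were closer together, at 565 to 878 TPM. Differences between sets and between cultures or mice cannot be told apart.

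In CPM, the members varied together weakly over the 96 cells. For the 45 combinations of 2 members, Spearman's rho of log2(CPM + 1) was 0.14 at the median, from -0.15 for Dsg2 with Pkp3 to 0.43 for Dsc2 with Dsc3. It was above 0.3 in 6 combinations and below 0 in 6. The median was 0.11 without pair 4 and 0.094 without set 1. Members with all genes had a median of 0.0026, and 90% of those values lay between -0.20 and 0.20. Scaled to ERCC transcripts the median over the 45 combinations was 0.28, with 0.69 for Dsp and Perp, 0.61 for Dsp and Jup and 0.59 for Jup and Perp, which had 0.14 in CPM. Under that scaling members with other genes also had a higher median, of 0.12, and 90% of those values lay between -0.09 and 0.37. For the differences between sisters in CPM the median over the combinations was 0.07. The cells share a sequencing lane and sister pairs, and no p is given.

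Dsc2 and Dsc3, neighbouring desmocollin genes, were the closest combination, with a rho of 0.43 and a Pearson's r of 0.51 (r of 0.40 without the 2 cells farthest from the median). Over 14463 genes, no other gene had a rho with Dsc2 as high as that of Dsc3. It was 0.41 with set means taken out, 0.44 without pair 4, 0.39 to 0.49 without any 1 set, and 0.29 for the differences between sisters. Dsg2 with Dsc3 had 0.35 (r of 0.35, and 0.23 without 2 cells), while the neighbours Dsg2 and Dsg3 had 0.07.

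Dsp varied most closely with Perp, with a rho of 0.39 and an r of 0.40 (0.40 without 2 cells), and 0.42 within sets. For the differences between sisters it was 0.03, so that this relation lay between pairs. Pkp1 and Jup, which both encode plaque proteins, had 0.41 with an r of 0.31 (0.36 without 2 cells), and 0.24 for the differences between sisters. Pkp2 was close to no other member, with values between -0.11 with Dsc3 and 0.14 with Dsg2.

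**Figure D4:**
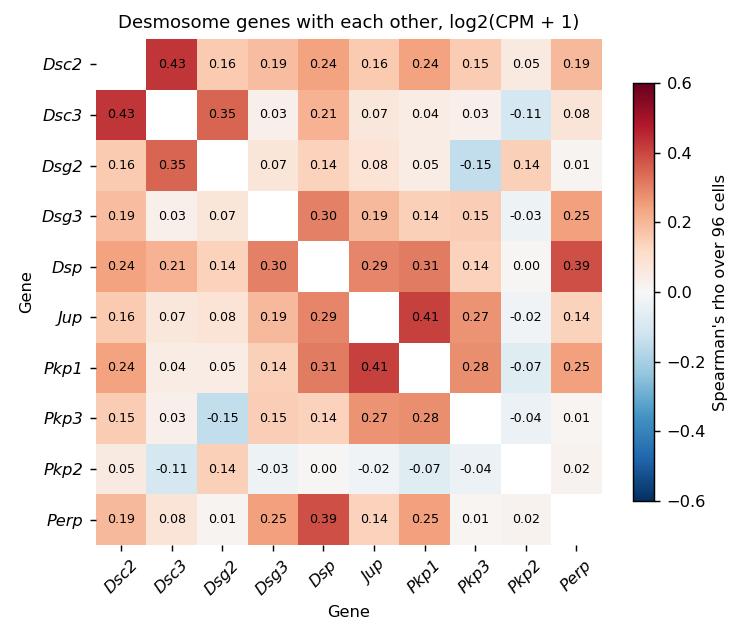
Spearman's rho over 96 cells of log2(CPM + 1) for each combination of desmosome genes, as a colour from -0.6 (blue) to 0.6 (red) with its value. Dsc2 with Dsc3 (0.43), Pkp1 with Jup (0.41) and Dsp with Perp (0.39) are the strongest, and the row of Pkp2 is near 0.

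Genes outside the list were ranked by the same measure over the 96 cells. Closest to Perp were the annexin gene Anxa8, with a rho of 0.56 and an r of 0.44 (0.45 without 2 cells), and Cdkn1a, a cell cycle inhibitor and p53 target, with 0.49 and 0.46 (0.45). With set means taken out these were 0.53 and 0.51. Perp had a rho of 0.07 with the transcript of Trp53 and 0.01 with that of Trp63.

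Closest to Dsc3 were 2 glutathione transferase genes, Gstm1 with a rho of 0.59 and an r of 0.52 (0.52 without 2 cells) and Gstm3 with 0.53 and 0.44 (0.45). Within sets they were 0.59 and 0.56, and for the differences between sisters 0.29 and 0.20. These genes are close paralogs, and how reads were divided between them is uncertain. Jup was closest to Trim29, a gene of stratified epithelia, with a rho of 0.58 and an r of 0.62 (0.57), and to Pgd, an enzyme of the pentose phosphate pathway, with 0.50 and 0.52 (0.51).

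Dsp was closest to the kinase gene Map4k4, with a rho of 0.49 and an r of 0.51 (0.54 without 2 cells), and to the elongation factor gene Aff4, with 0.47 and 0.47 (0.46). For Map4k4 it fell to 0.28 within sets and 0.10 for the differences between sisters. Pkp1 was closest to the glycolytic gene Gpi1, at 0.54 and 0.44 (0.47), and Dsg3 to the cathepsin gene Ctsl, at 0.51 and 0.55 (0.56). Pkp3 was closest to the cortactin gene Cttn, at 0.43 and 0.39 (0.56), and to the syndecan gene Sdc1, at 0.43 and 0.48 (0.43). In both, sister differences had like values, at 0.46 and 0.48. For Pkp2 the highest value over all genes was 0.35, with the kinase gene Csnk1e.

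A score of the 10 members, the mean of their standardized log2(CPM + 1), was set beside the other genes in the same way. Leaving aside Gm9817 and Hsp25-ps1, pseudogene copies whose reads may come from the heat shock gene Hspb1, the highest were Dst, a linker of keratin to hemidesmosomes, at a rho of 0.48, and Hspb1 itself, at 0.46. Col17a1, a hemidesmosome collagen, had 0.45 and the keratin gene Krt17 0.43. Ctsd had 0.46, Adam8 0.44, Myof 0.43 and Plekha7, which encodes an adherens junction protein, 0.43. Over all genes 90% lay between -0.22 and 0.23. The lowest were the chromatin gene Hmgb1, at -0.52, its pseudogene copy Hmgb1-ps2, Gm21596 and Gm15387, and Ptp4a2, at -0.50. With counts scaled to ERCC transcripts these low values were near 0 or above it, at -0.02 for Hmgb1 and 0.16 for Ptp4a2, so that their size and sign depend on the scaling. The spread over all genes is not given for that scaling.

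Lists of basal, squamous and cell cycle genes were compared with each member in turn. For single genes the median rho with the members was 0.0026 in CPM and 0.12 with ERCC scaling. No such background was computed for means over a list. With the 7 basal cell genes, among them Trp63, Krt5, Krt14 and Col17a1, the members had a median rho of 0.24, highest for Pkp1 at 0.53 (r of 0.33, and 0.41 without 2 cells), Dsp at 0.38 and Perp at 0.37. Dsg2 had -0.03 and Pkp2 -0.12. With ERCC scaling the median was 0.39, with 0.66 for Pkp1, 0.65 for Dsp and 0.61 for Perp. With the squamous differentiation genes, 13 of 15 of which passed the filter, the median was 0.16, with 0.43 for Pkp1 and -0.17 for Dsc3. It was 0.078 without set 12 and 0.36 with ERCC scaling.

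The 13 cell cycle genes had a median rho of -0.20 with the members, lowest for Perp at -0.42 and Dsp at -0.39. With ERCC scaling the median was 0.065, with 0.06 for Perp and -0.01 for Dsp. The sign of this median therefore turns with the scaling, while under both it was below the median over single genes given above. Scaled to ERCC transcripts, Jup had a rho of 0.72, Perp 0.71 and Dsp 0.68 with the number of counts on genes per ERCC count in a cell, a measure that shares the ERCC counts with them. In CPM these were 0.25, 0.11 and 0.29.

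Other genes of the desmosome and of neighbouring structures were taken from lists of known genes, and 43 of 69 had a median of at least 1 TPM. Of the remaining desmosome genes, the cadherins of upper, cornifying layers were missing. Dsg1a, Dsg1b and Dsg1c were counted in 0 of 96 cells, which allows, for counting error only, a share of cells with a count of up to 3.125% (6.25% of 48 pairs) and sets no limit on cells that hold the transcript, Dsg4 in 1 cell with 23 counts, and Dsc1 in 3 cells with at most 280. The plakin genes Ppl and Evpl had medians of 24.4 and 2.97 TPM, Pkp4 of 16.5 TPM and Kazn, which encodes a periplakin partner, of 12.3 TPM. These 4 varied over cells as the lower members did, with Ppl between 0.0693 and 184 TPM.

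Adherens junction genes were at levels between those of Jup and Dsp or below. E-cadherin (Cdh1) had a median of 143 TPM, alpha-catenin (Ctnna1) of 209 TPM and beta-catenin (Ctnnb1), the close relative of plakoglobin, of 148 TPM. Jup had a rho of 0.39 with Ctnnb1 (r of 0.39, and 0.35 without 2 cells) and of 0.19 with Cdh1, and Dsp had 0.40 with Cdh1 (0.23 within sets). N-cadherin (Cdh2) had a median of 0 TPM and was counted in 44 cells. The summed level was 709 TPM at the median for the 12 adherens junction genes, 664 TPM for the 11 tight junction genes and 300 TPM for the 5 gap junction genes, beside 1581 TPM for the desmosome genes. Over all cells, Perp gave 46.8% and Jup 22.6% of the desmosome level. The sums depend on which genes are listed and do not rank the junctions.

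The keratins to which desmosomes attach were far more abundant, at medians of 4647 TPM for Krt17, 3672 for Krt14, 2801 for Krt6a and 2090 for Krt5. Vim, the filament gene of mesenchymal cells, was counted in no cell, and neither was Snai1, a repressor of epithelial junction genes. Zeb1 was counted in 1 cell, Twist1 in 2 and Zeb2 in 4. Snai2, a relative of Snai1 present in basal cells, had a median of 42.6 TPM, and the epithelial regulators Trp63 and Grhl2 had 80.2 and 27.6 TPM.

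**Figure D5:**
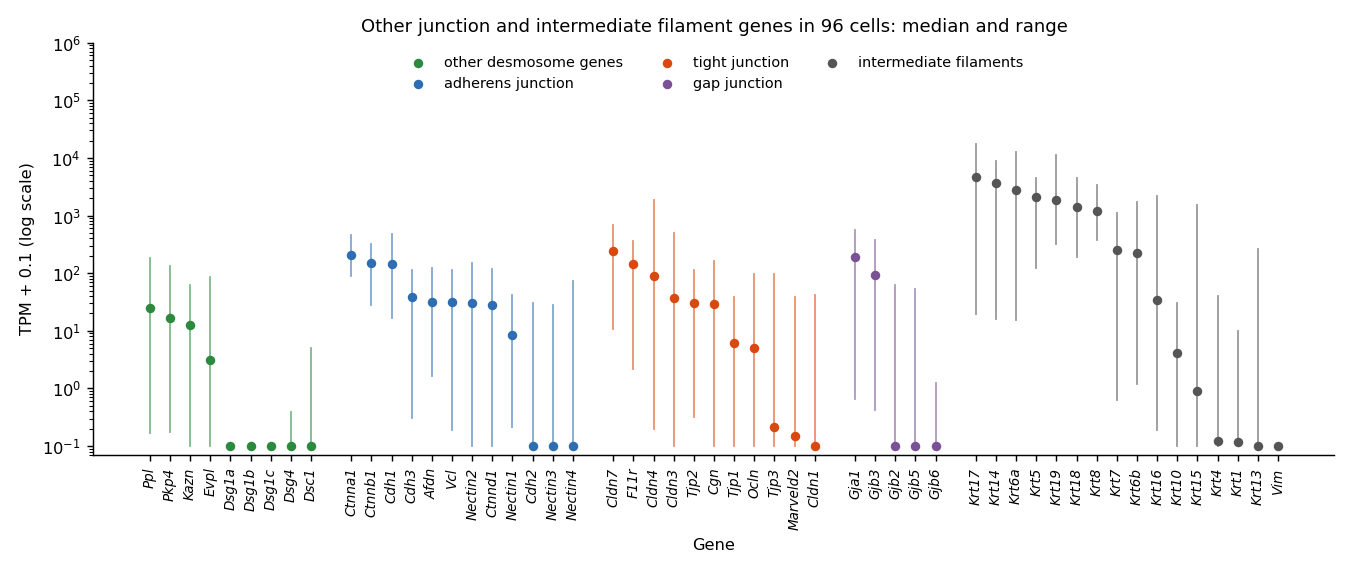
Median (point) and range over 96 cells (line) of TPM + 0.1 on a log scale for other desmosome, adherens junction, tight junction, gap junction and intermediate filament genes. Ppl, Pkp4 and Kazn have medians of 24.4, 16.5 and 12.3 TPM, whereas Dsg1a, Dsg1b, Dsg1c and Vim are at 0 in every cell.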

How the data were processed

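Per the submitters' processing notes and methods, reads were trimmed (Trimmomatic 0.39), and pairs were aligned by STAR 2.7.11a. The reference was GRCm38 plus ERCC sequences, annotated by Ensembl release 100, and StringTie 2.2.1 gave the values per gene. The authors deposited unnormalized counts in 1 table and TPM per gene for each cell, scaled with the ERCC transcripts included. The library kit does not keep strand, and reads carried no molecular identifiers, so intervals cover counting error only.

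The members and lists were chosen with earlier results of these data known. Levels are deposited TPM, summed where a gene ID had several entries. For sister ratios, counts were scaled cell by cell by the median ratio to the mean profile of 22 ERCC transcripts present in all 96 cells (factors 0.387 to 1.93, pseudocount 1). CPM was used for correlations and the intraclass correlation (one-way model over 48 pairs). Backgrounds used the 14463 genes with at least 10 counts in 10% of cells. Ranges of median TPM (10, 50, 150 and 1000) and the threshold of 100 counts were set after values were seen. Genes named are the 10 members, the listed genes, the 2 nearest genes of each member and the 10 highest and 5 lowest for the score. The calculation of the intraclass correlation and ratios was checked on simulated counts without capture loss or differences between sets. This does not show how these measures behave with the noise of these data. No 2 cells were duplicates (highest Pearson correlation of log2(count + 1) between 2 cells 0.733).

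Alternatives were library totals, TMM (edgeR 4.0.16), DESeq2 1.42.0 size factors, TPM, other cutoffs and filters, and each set, pair 4 or pair 46 left out. Calculations used Python 3.11.15, numpy 2.4.6, scipy 1.17.1, pandas 2.3.3, R 4.3.3 and matplotlib 3.10.9. No p-values were computed, because cells are not replicates and the labels name no mouse or culture. The clusters of activated and renewed HBCs in the study were not analysed here, since the labels do not give them.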

Additional observations from a re-analysis of the deposited data

How the results depend on the processing

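The number of members counted in every cell fell from 8 to 5 when at least 10 counts were asked for and to 3 at a TPM of at least 1, and the share of combinations with different sisters was 37.9% at a cutoff of 2 (background 53.2%). With ERCC scaling, the median rho was 0.28 between members, 0.39 with basal genes, 0.36 with squamous genes and 0.065 with cell cycle genes. Members with single other genes had a median of 0.12 under that scaling. Perp differed in 9 pairs with library totals, 8 with TMM, 7 with DESeq2 size factors and 8 with TPM, beside 15 with ERCC scaling. Low combinations of gene and cell numbered 19 under 10 counts and 126 under 1000. For these, and for members counted in every cell at the stricter thresholds, no share over all genes was computed. The background of sister differences was 35.2% over all genes with any count. Leaving out each of the 12 sets in turn gave summed levels of 1547 to 1607 TPM, sister differences of 54.5% to 57.95%, a median intraclass correlation of 0.38 to 0.49, and median rho of 0.094 (without set 1) to 0.16 between members, 0.19 to 0.29 with basal genes, 0.078 (without set 12) to 0.20 with squamous genes and -0.22 to -0.17 with cell cycle genes. Cells low for a member rest on few reads, and losses at capture cannot be told apart from absent transcript.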
